A study of Homo sapiens with 9 samples.

Results

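Tubulin genes encode the subunits of microtubules, the polymers that build the mitotic spindle and carry traffic inside cells. The 10 genes described here were chosen by symbol: the alpha tubulins TUBA1A, TUBA1B and TUBA1C, the beta tubulins TUBB, TUBB2A, TUBB2B, TUBB3, TUBB4B and TUBB6, and the gamma tubulin TUBG1. The choice was made with earlier results of these data known. The genes were found through their Ensembl identifiers in GENCODE release 29 and are 10 of the 60675 rows of the count table. RNA came from HCC827, an established lung adenocarcinoma line that depends on a mutant EGFR. The cells stably carried G1 or G7, a pair of short hairpin RNAs against CBX5 (the heterochromatin protein HP1 alpha), or the non-silencing hairpin NS. There were 3 libraries each of G1, G7 and NS, all from cells grown in DMEM with serum and with no drug named in the labels. G1 and G7 are partial knockdowns by stable hairpins in 1 cell line, and the sources used here do not say whether each replicate was a separate transduction. The p-values below therefore measure the spread between these libraries, which may be technical.

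Alpha and beta tubulin pair into the dimer that polymerises, and gamma tubulin sits in a ring complex that starts new microtubules. The human genome holds several nearly identical copies (isotypes) of alpha and beta tubulin whose use differs between tissues. TUBB3 is best known from neurons, and TUBB, TUBB4B, TUBA1B and TUBA1C are broadly expressed in dividing cells. Cells also adjust tubulin messenger RNA to need: when free dimer accumulates, the factor TTC5 recognises the first residues of the growing tubulin chain on the ribosome and, through SCAPER and the CCR4-NOT complex, brings on decay of the message. Gamma tubulin does not begin with those residues.

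The first 30 bases of each coding sequence (GENCODE 29, GRCh38) are shown because they carry that recognition element and because they show how alike the copies are. The first 12 bases, which encode the start methionine and the next residues, are in capitals.
TUBA1A: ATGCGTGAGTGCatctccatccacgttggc
TUBA1B: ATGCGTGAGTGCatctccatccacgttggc
TUBA1C: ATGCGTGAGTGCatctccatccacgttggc
TUBB: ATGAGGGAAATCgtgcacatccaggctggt
TUBB2A: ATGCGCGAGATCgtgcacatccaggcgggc
TUBB2B: ATGCGTGAGATCgtgcacatccaggcgggc
TUBB3: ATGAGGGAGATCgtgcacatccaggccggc
TUBB4B: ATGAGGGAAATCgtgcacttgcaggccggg
TUBB6: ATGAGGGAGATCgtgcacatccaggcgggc
TUBG1: ATGCCGAGGGAAatcatcaccctacagttg
All 3 alpha members shared 1 identical run of 30 bases. The 6 beta members had 4 different spellings of the 12 capital bases, and TUBB and TUBB4B shared theirs. TUBG1 began differently from all of them. Over the whole coding sequence TUBA1A and TUBA1B were 97.2% identical, TUBA1A and TUBA1C 95.9%, TUBB2A and TUBB2B 98.1%, and TUBB and TUBB4B 84.4%.

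This likeness bears on what could be counted. In the reference transcripts, the share of 100-base windows that also occur in a transcript of another gene was 89.0% for TUBB3, 56.4% for TUBB2A, 46.2% for TUBB2B, 37.2% for TUBA1B, 18.3% for TUBA1A, 14.9% for TUBG1 and 11.5% for TUBA1C. It was 5.1% for TUBB, where the other gene was the pseudogene TUBBP1, 2.86% for TUBB4B and 0 for TUBB6. For TUBB3 the gene sharing most windows was AC092143.1, whose exons overlap those of TUBB3 on the same strand. Its 89.0% is therefore not a measure of likeness between tubulin copies alone. With 50-base windows the shares were larger, at 29.9% for TUBG1, 18.2% for TUBB, 9.89% for TUBB4B, 0.993% for TUBB6 and 25.1% to 89.4% for the other members. Read length is not given in the sources used here. At either window length TUBB, TUBB4B and TUBB6 shared least, while TUBA1A, TUBA1C, TUBB2A, TUBB2B and TUBG1 are uncertain. TUBA1B and TUBB3 were listed at 0 counts in all 9 libraries. For counting error alone, 0 counts allow up to 3, which was 0.139 to 0.227 CPM (counts relative to library size, scaled by edgeR's TMM factors) over the libraries. That limit covers no loss of reads to near-identical or overlapping genes, so the zeros are given as listed and not as a lack of expression. The GENCODE 29 gene AC092143.1 covers 35.8% of the TUBB3 exon bases on the same strand and was also listed at 0. On the opposite strand AC011603.2 covers 36.6% of the TUBA1B exon bases and held at most 2 counts in a library. Of protein-coding genes whose exon bases all lie under exons of other genes, 252 of 255 were listed at 0 in every library (98.8%), compared with 2342 of 11018 (21.3%) of those with no such base. Over the union of their annotated exons TUBA1B and TUBB3 are covered only in part, so they belong to neither class. For TUBB3 the 35.8% understates the sharing over its coding transcript. There 89.0% of 100-base windows occur in other genes, AC092143.1 first. The part of read handling in their zeros was not tested.

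The libraries held 16523561 to 19339887 counts with G1, 15781878 to 22372353 with G7 and 12701561 to 16030488 with NS. Of the epithelial markers chosen for this tissue, 8 of 10 were at 1 CPM or more in every group, and the lung adenocarcinoma markers NKX2-1 and NAPSA were listed at 0 throughout. The 5 neuronal markers summed to 0.652 to 1.60 CPM in G1, 1.68 to 2.28 in G7 and 1.37 to 1.79 in NS, with SNAP25 and STMN2 at 0. The epithelial markers summed to 14700 to 14960 CPM in G1, 12650 to 13240 in G7 and 10800 to 11710 in NS, so they were highest in G1. The endothelial markers summed to 71.1 to 76.9 CPM in G1, 85.8 to 92.5 in G7 and 84.2 to 92.8 in NS, and the leukocyte markers to 3.145 to 4.445 CPM in G1, 6.24 to 7.575 in G7 and 6.66 to 8.21 in NS, lowest in G1. These sums moved with the groups and their part in the tubulin values was not tested. Summed fibroblast markers were at 13.1 to 15.8 CPM over all groups, with LUM at 0. CBX5 itself was at 142 ± 0.595 CPM in G1, 203 ± 1.54 in G7 and 369 ± 8.11 in NS (SD, n = 3 each), a log2 fold change of -1.38 for G1 (edgeR, adjusted p = 4.02e-15) and -0.86 for G7 (adjusted p = 5.09e-11). Its message was thus lower in every hairpin library, and lower in G1 than in G7 (-0.52, adjusted p = 5.63e-09). Replicate 3 of G7 stood apart: against its 2 partners the chi-square over its degrees of freedom, which sampling noise alone puts at 1, was 24.7 and 19.5, and between those 2 it was 1.51. In it 19.8% of counts were mitochondrially encoded, the highest of the 9 libraries, whose lowest was 13.4%. The chi-square over its degrees of freedom was also above 1 elsewhere, at 3.36 to 9.57 between G1 libraries and 2.83 to 5.28 between NS libraries.

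TUBA1A, TUBB, TUBB2A, TUBB4B, TUBB6 and TUBG1 were higher in G1 than in NS, and TUBB, TUBB4B and TUBG1 were also higher in G7, by less. Of the 10 genes, 7 passed the filter on low counts (13264 genes passed in all), each with enough counts in 9 of 9 libraries. In G1, 6 of those 7 rose and 0 fell, with a median log2 fold change of 1.16. Over all tested genes the median was -0.01, 30.4% were called higher, 28.7% lower and 59.1% in either direction at an adjusted p under 0.05, so a call alone is common in this contrast. The G1 libraries lay above the NS libraries without overlap for 6 of 7 (32.5% of all genes). A called log2 fold change above 1 was less common: it was met by 2.19% of all tested genes and by 5 of the 7, TUBB, TUBB2A, TUBB4B, TUBB6 and TUBG1. Those 5 also passed a test against a 1.5-fold change, as did 4.06% of all genes in that direction. The members were chosen with earlier results of these data known, so these counts beside the shares of all genes are no independent support.

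In G7, 3 of 7 rose and 0 fell, with a median of 0.30 against 0.01 over all genes, of which 22.7% were called, 13.1% higher and 9.64% lower. The G7 libraries lay above NS without overlap for 4 of 7, TUBB, TUBB4B, TUBB6 and TUBG1 (19.3% of all genes). In the test against a 1.5-fold change 0 of 7 passed as higher (0.0377% of all genes in that direction). Without replicate 3 of G7, and likewise without replicate 3 of NS, 4 of 7 were called higher, TUBB6 being the addition. Between the hairpins, G1 minus G7, 6 of 7 were higher in G1 and 0 lower, with a median of 0.59 against -0.01. Of all genes 44.9% were called there, 23.3% higher and 21.6% lower. The G1 libraries lay above G7 without overlap for 6 of 7 (27.0% of all genes). TUBB2A, TUBB4B and TUBB6 passed the 1.5-fold test as higher (0.980% of all genes in that direction). G1 and G7 share the NS libraries as their control, so their changes against it are not independent of each other. In bulk RNA, more message per cell and a larger share of cells with much message cannot be told apart.

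**Figure D1:**
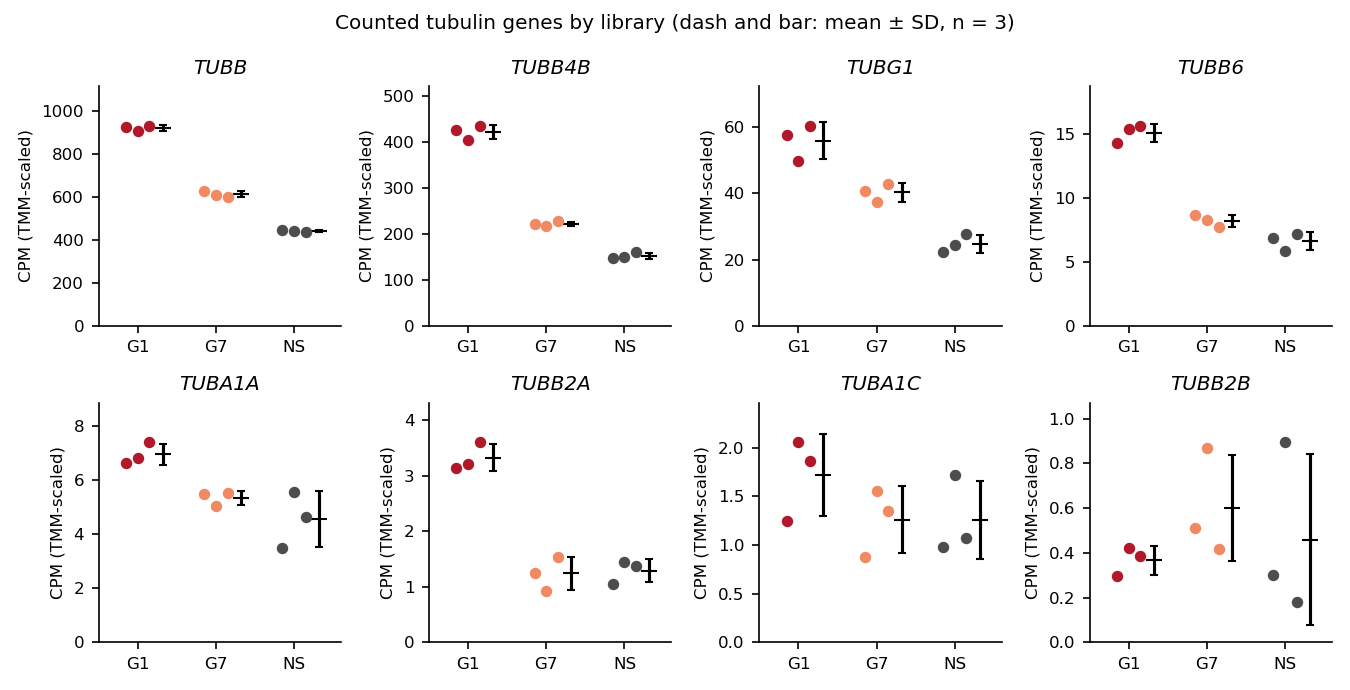
Level of the counted tubulin genes in each library (y axis, TMM-scaled CPM) with G1, G7 and NS from left to right; points are libraries, and the dash and bar give mean ± SD (n = 3). The TUBB, TUBB4B and TUBG1 libraries lie in 3 separate steps, highest in G1 and lowest in NS, while TUBB2A is high in G1 only and TUBA1C overlaps between groups.

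Set per kilobase of exon, counted beta tubulin message was nearly all TUBB and TUBB4B. That length is the union of annotated exons, and no allowance was made for reads lost to near-identical copies. Levels of different genes therefore compare only roughly. In G1 the levels ran from TUBB at 274 ± 3.63 CPM per kb and TUBB4B at 199.7 ± 7.25, through TUBG1 at 23.2 ± 2.28 and TUBB6 at 3.66 ± 0.177, to TUBA1A at 2.03 ± 0.114 and TUBB2A at 1.92 ± 0.141 (SD, n = 3). TUBA1A and TUBB2A did not differ beyond their spread there, and TUBA1C (0.372) and TUBB2B (0.168) came last. In NS the order was the same for TUBB (132 ± 1.08), TUBB4B (72.2 ± 3.05) and TUBG1 (10.3 ± 1.14). There TUBB6 (1.61 ± 0.173) and TUBA1A (1.33 ± 0.306) overlapped, as did TUBA1C and TUBB2B. Added up without length scaling, the 10 genes took 0.136% to 0.139% of all counts in G1, 0.0851% to 0.09305% in G7 and 0.0639% to 0.0671% in NS, so the groups did not overlap. The 3 alpha rows made up at most 0.663% of the CPM of the alpha and beta members in G1, 0.811% in G7 and 1.2% in NS, with TUBA1B at 0. With TUBA4A, an alpha gene outside the 10, added, the alpha share was 10.3% to 11.1% in G1, 8.44% to 9.23% in G7 and 7.46% to 8.51% in NS, highest in G1, while G7 and NS overlapped.

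TUBB, the beta isotype with the most counted message here, lies on the plus strand of chromosome 6 (GRCh38, 30720201 to 30725426). It was at 926, 908 and 931 CPM in the G1 libraries, 628, 611 and 600.4 CPM in the G7 libraries and 445, 442 and 438 CPM in the NS libraries. The 3 groups did not overlap and the replicates of a group lay close together. The quasi-likelihood test of edgeR, adjusted over the 13264 genes by the Benjamini-Hochberg method, gives every adjusted p here unless another test is named. The log2 fold change of TUBB was 1.06 ± 0.04 (SE, adjusted p = 1.93e-13) for G1, or 2.09-fold. It was 0.47 ± 0.04 (adjusted p = 1.88e-07), or 1.39-fold, for G7. G1 exceeded G7 by 0.59 ± 0.04 (adjusted p = 1.32e-09).

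TUBB4B, a beta isotype also used in cilia, lies on the plus strand of chromosome 9 (137241213 to 137243707). Its level was 425, 405 and 434.5 CPM in G1, 221, 218 and 227 CPM in G7 and 148, 149.9 and 159.7 CPM in NS. As for TUBB, every G1 library lay above every G7 library and every G7 library above every NS library. The log2 fold change was 1.47 (SE 0.045, adjusted p = 1.12e-14) for G1 and 0.54 (SE 0.045, adjusted p = 1.48e-07) for G7, which is 2.76-fold and 1.46-fold. The G1 level exceeded the G7 level by 0.92 (SE 0.043, adjusted p = 1.01e-11).

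TUBB6, a broadly expressed minor beta isotype, lies on the plus strand of chromosome 18 (12307669 to 12344320). It was at 14.2, 15.3 and 15.6 CPM in G1, 8.62, 8.26 and 7.69 CPM in G7 and 6.88, 5.84 and 7.2 CPM in NS. The G7 libraries lay above the NS libraries without overlap, but only the G1 libraries stood well clear of both. The log2 fold change was 1.18 for G1 (SE 0.101, adjusted p = 1.31e-08) and 0.30 for G7 (SE 0.109, adjusted p = 0.0565), which missed the threshold. Without replicate 3 of G7 it passed (0.35, adjusted p = 0.0362), and likewise without replicate 3 of NS (0.37, adjusted p = 0.0455). AFG3L2 on the opposite strand overlaps 20.3% of the TUBB6 exon bases. It was 0.37 higher on the log2 scale in G1 (adjusted p = 5.27e-05), and its part in the TUBB6 counts was not tested.

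TUBB2A, on the minus strand of chromosome 6 (3153669 to 3157526), separated the hairpins. It was at 3.14, 3.21 and 3.59 CPM in G1, 1.25, 0.931 and 1.54 CPM in G7 and 1.06, 1.44 and 1.37 CPM in NS. The G1 libraries were above all the others, and the G7 and NS libraries overlapped. Its log2 fold change was 1.34 for G1 (SE 0.204, adjusted p = 1.67e-05) and -0.04 for G7 (adjusted p = 0.941), and the difference between the hairpins was 1.38 (SE 0.191, adjusted p = 1.1e-05). Its near-copy TUBB2B, which lies on the same strand and chromosome (3224261 to 3231730), did not pass the filter. TUBB2B had 19 counts in all with G1, 34 with G7 and 20 with NS, a mean of 0.368 ± 0.0644 CPM in G1, 0.599 ± 0.238 in G7 and 0.458 ± 0.382 in NS (SD, n = 3 each).

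Of the alpha members, TUBA1A and TUBA1C overlap each other head to head on chromosome 12 (TUBA1A on the minus strand, 49184796 to 49189324, and TUBA1C on the plus strand, 49188736 to 49274603), and TUBA1B lies beside them on the minus strand (49127782 to 49131397). TUBA1A was at 6.64, 6.8 and 7.38 CPM in G1, 5.47, 5.03 and 5.5 CPM in G7 and 3.48, 5.56 and 4.64 CPM in NS. Only its G1 libraries lay above all of NS, and the log2 fold change was 0.59 (SE 0.141, adjusted p = 0.0014) for G1 and 0.22 (adjusted p = 0.298) for G7. The difference between the hairpins, 0.37 (SE 0.129, adjusted p = 0.0255), ended with DESeq2 (0.38, adjusted p = 0.0607), with upper quartile scaling (0.31, adjusted p = 0.0585) or library totals (0.32, adjusted p = 0.0581), and without replicate 3 of G1 (0.33, adjusted p = 0.0815) or replicate 2 of G7 (0.34, adjusted p = 0.0715). TUBA1C averaged 1.72 ± 0.423 CPM in G1, 1.26 ± 0.345 in G7 and 1.26 ± 0.401 in NS (SD, n = 3 each), and its libraries overlapped between all groups. It passed no test (log2 fold change 0.46 for G1, adjusted p = 0.168, and -0.02 for G7, adjusted p = 0.97).

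TUBG1, the main gamma tubulin of dividing cells, lies on the plus strand of chromosome 17 (42609676 to 42615234). It was at 57.6, 49.7 and 60.3 CPM in G1, 40.6, 37.3 and 42.9 CPM in G7 and 22.2, 24.5 and 27.7 CPM in NS, again in 3 steps without overlap. The log2 fold change was 1.16 for G1 (SE 0.084, adjusted p = 1.27e-09) and 0.70 for G7 (SE 0.086, adjusted p = 1.38e-05). G1 and G7 differed by 0.47 (SE 0.077, adjusted p = 7.83e-05). TUBG2, its paralog, moved the other way with G1: 12.2, 12.4 and 12.5 CPM in G1, 15.7, 16.3 and 16.9 CPM in G7 and 15.6, 16.5 and 17.7 CPM in NS, with a log2 fold change of -0.43 for G1 (adjusted p = 0.000173) and -0.03 for G7 (adjusted p = 0.811). The pair shares part of its sequence: 14.9% of 100-base and 29.9% of 50-base TUBG1 windows also occur in another gene. The part of this likeness in the TUBG1 and TUBG2 counts was not tested. Per kilobase, TUBG1 was 4.6 to 5.54 times TUBG2 in G1, 2.64 to 2.97 times in G7 and 1.63 to 1.8 times in NS.

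**Figure D2:**
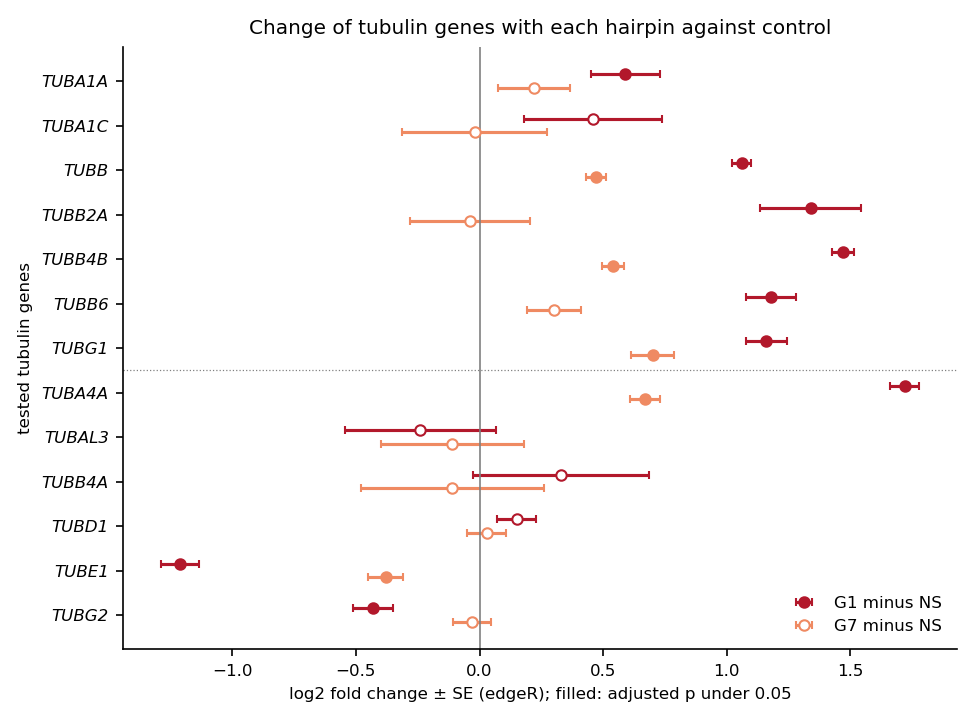
Log2 fold change ± SE (x axis, edgeR) of each tested tubulin gene (y axis) for G1 minus NS and G7 minus NS; filled points passed an adjusted p under 0.05. The beta and gamma members lie right of 0 with G1, TUBA4A lies farthest right at 1.72, and TUBE1 lies farthest left at -1.21.

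Of the 13 other genes of the family, 6 passed the filter, and they did not move one way. In G1, 1 rose and 2 fell, and in G7, 1 rose and 1 fell. TUBA4A, an alpha isotype, had a higher counted level per kilobase than the alpha members (37.7 CPM per kb in G1, 18.2 in G7 and 11.4 in NS). TUBA1B was listed at 0 and the alpha members share sequence, so this does not rank their messages. TUBA4A was at 155, 143 and 163 CPM in G1, 73.2, 70.8 and 78.3 CPM in G7 and 44.0, 48.6 and 47.0 CPM in NS. The groups were far apart, and its log2 fold change was 1.72 for G1 (SE 0.058, adjusted p = 4.34e-14) and 0.67 for G7 (adjusted p = 4.07e-07). TUBE1, the epsilon tubulin of centrioles, was at 12.7, 12.2 and 13.2 CPM in G1, 24.5, 21.2 and 21.9 CPM in G7 and 28.5, 30.6 and 28.98 CPM in NS. It fell in both, by 1.21 on the log2 scale with G1 (adjusted p = 2.11e-10) and by 0.38 with G7 (adjusted p = 0.000744). TUBD1, the delta tubulin, did not pass the test (0.15 for G1, adjusted p = 0.115, and 0.03 for G7, adjusted p = 0.853), and TUBB4A and TUBAL3 were near 1 CPM and passed none either.

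The share of TUBB4B among counted beta messages was higher in each G1 library than in any G7 or NS library. TUBB4B made up 41.6% ± 0.569 of counted beta tubulin per kilobase in G1, 36.2% ± 0.919 in G7 and 35.0% ± 1.12 in NS (SD, n = 3 each). TUBB made up 57.2% ± 0.56 in G1, 62.8% ± 0.913 in G7 and 63.8% ± 1.15 in NS. The G1 libraries lay outside the range of the other 2 groups for both isotypes, and G7 and NS overlapped. Per kilobase, TUBB4B stood to TUBB at 0.73, 0.709 and 0.743 in the G1 libraries, 0.559, 0.567 and 0.603 in the G7 libraries and 0.527, 0.539 and 0.58 in the NS libraries. These shares and ratios are given as values and were not tested.

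**Figure D3:**
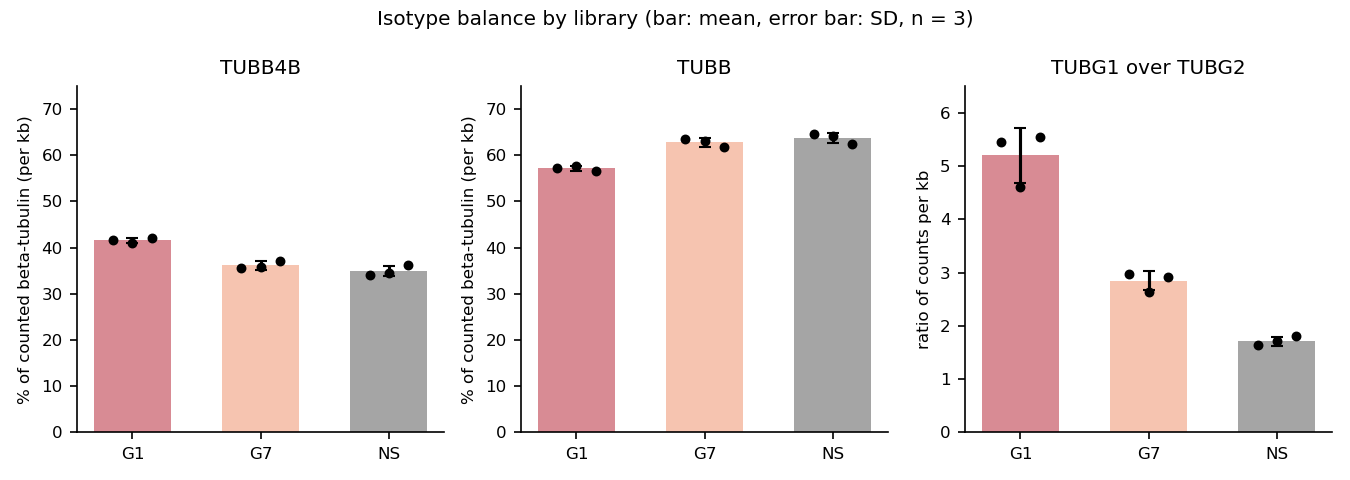
Share of counted beta tubulin taken by TUBB4B and by TUBB (y axis, percent of counts per kb) and the TUBG1 to TUBG2 ratio of counts per kb, for G1, G7 and NS from left to right; bars are means, error bars SD (n = 3) and points libraries. TUBB4B takes 41.6% in G1, 36.2% in G7 and 35.0% in NS, and the TUBG1 to TUBG2 ratio steps down in the same order.

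The promoters of TUBB4B and TUBB are shown because these genes carried most of the change in counted beta message. The windows are from RefSeq (GRCh38.p14) and span 250 bases before to 50 after the start, on the plus strand. TUBB4B is at chr9:137241037-137241336 and TUBB at chr6:30720102-30720401. Capitals mark matches to CCAAT, the core read by NF-Y, and to TTTGAA, a form of the CHR element of cell-cycle genes, each searched as written and as its reverse complement.
TUBB4B: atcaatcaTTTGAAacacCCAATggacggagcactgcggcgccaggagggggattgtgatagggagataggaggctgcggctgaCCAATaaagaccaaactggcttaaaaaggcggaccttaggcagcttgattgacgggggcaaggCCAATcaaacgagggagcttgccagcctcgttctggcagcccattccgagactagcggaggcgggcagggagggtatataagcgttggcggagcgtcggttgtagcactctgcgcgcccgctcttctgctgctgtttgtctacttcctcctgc
TUBB: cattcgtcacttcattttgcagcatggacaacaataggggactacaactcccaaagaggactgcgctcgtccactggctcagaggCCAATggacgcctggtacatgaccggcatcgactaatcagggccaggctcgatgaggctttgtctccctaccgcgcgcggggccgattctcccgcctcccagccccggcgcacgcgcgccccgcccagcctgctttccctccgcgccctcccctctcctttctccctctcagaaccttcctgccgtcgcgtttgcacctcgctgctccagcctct
All 10 genes had a listed promoter, and only the first listed start of each was searched. Other starts of a gene are not covered, while the shares of all promoters count every listed start. The TUBA1C window (49227676 to 49227975) lies far inside the gene, whose outermost annotated start is at 49188736. CCAAT was found 3 times for TUBB4B, 2 times for TUBA1A, once each for TUBB, TUBA1C, TUBB2B and TUBG1, and not in those of TUBA1B, TUBB2A, TUBB3 and TUBB6. Of 34943 promoters of the same length 34.6% held it. TTTGAA was found for TUBB4B and TUBA1C, and 15.2% of promoters held it. GCGGGAA, an E2F-type core, was in none of the 10 windows, against 6.54% of promoters. GGGCGG, the GC box, was found 5 times for TUBB2A, 3 times for TUBA1B, 2 times for TUBG1 and once each for TUBB and TUBB2B. It was not found for TUBA1A, TUBA1C, TUBB3, TUBB4B and TUBB6, and 44.9% of promoters held it. Each motif was searched on both strands, GGGCGG and GCGGGAA can share letters, and a match is a run of letters, not a shown site.

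Most tested genes for the folding of tubulin were called higher in G1. The list held the 8 subunits of the chaperonin CCT, which folds tubulin and actin, the prefoldins that hand chains to it, and the cofactors that assemble the dimer. Of 21 tested, 18 rose and 1 fell in G1 (median log2 fold change 0.45, against -0.01 over all tested genes), and 10 rose and 0 fell in G7 (median 0.16). Of all tested genes 30.4% were called higher and 28.7% lower in G1, and 13.1% higher and 9.64% lower in G7. All 8 CCT genes rose in G1, between 0.33 for CCT4 and 0.91 for CCT5. CCT5 was at 718, 716 and 752 CPM in G1, 468, 477 and 502 CPM in G7 and 393, 392 and 379 CPM in NS, with the groups apart (G1, adjusted p = 2.76e-12; G7, 0.31, adjusted p = 3.63e-05). TCP1, another CCT subunit, changed by 0.83 with G1 and 0.23 with G7. The gene that fell in G1 was TBCEL (-0.62), related to cofactor E and known to destabilise tubulin. The G7 count of genes that rose was 6 without replicate 2 or without replicate 3 of NS (the last also gave 1 that fell), and 5 with library totals in place of TMM.

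Genes of the gamma tubulin ring complex and of the proteins that place it also shifted. Of 17 tested, 14 rose and 2 fell in G1 (median 0.36), and 6 rose and 1 fell in G7 (median 0.13), beside 30.4% of all genes higher and 28.7% lower in G1 and 13.1% and 9.64% in G7. HAUS8, a subunit of the augmin complex that branches spindle microtubules, was at 15.5, 14.7 and 14.9 CPM in G1, 8.99, 9.62 and 9.83 CPM in G7 and 8.46, 6.94 and 6.19 CPM in NS. It rose by 1.07 with G1 (adjusted p = 7.47e-08) and 0.41 with G7 (adjusted p = 0.0119), and the G7 call ended without replicate 3 of NS (0.30, adjusted p = 0.0748). The ring subunits TUBGCP4 and TUBGCP5 rose by 0.61 and 0.46 with G1, while TUBGCP6 fell by 0.54. AKAP9, a scaffold that anchors the complex at the Golgi and centrosome, fell in both, by 0.72 with G1 (adjusted p = 4.49e-09) and by 0.36 with G7 (adjusted p = 0.000147). The G7 count of genes that rose was 3 without replicate 2 of G7 or replicate 3 of NS, and 2 with library totals in place of TMM, and the count that fell was 2 without replicate 2 of NS.

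Of 10 tested genes of the tubulin decay pathway, 4 rose and 3 fell in G1 (median 0.08), and 1 rose and 0 fell in G7 (median 0.01). In G1 these counts were close to the shares over all genes, 30.4% higher and 28.7% lower, and in G7 13.1% of all genes were higher and 9.64% lower. TTC5, which reads the start of the chain, fell by 0.23 with G1 (adjusted p = 0.012) and SCAPER, which links it to the deadenylase, by 0.38 (adjusted p = 0.000928). CNOT1, the scaffold of CCR4-NOT, rose by 0.27 with G1 and 0.11 with G7. The count of 4 that rose in G1 was 2 with upper quartile scaling or library totals and without replicate 3 of G1 or replicate 3 of NS, the CNOT1 call in G7 ended under most alternatives, and 1 gene fell in G7 without its replicate 3.

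Beside 30.4% of all genes called higher and 28.7% lower in G1, and 13.1% and 9.64% in G7, the genes of proteins that act on the polymer gave these counts. Among destabilisers and severing enzymes, 10 of 11 rose and 0 fell in G1 (median 0.51), and 7 rose and 0 fell in G7 (median 0.28). STMN1, which sequesters free dimer, rose by 0.64 with G1 (adjusted p = 1.4e-09) and 0.41 with G7 (adjusted p = 5.34e-06), and the mitotic kinesins KIF18B, KIF18A and KIF2C by 0.97, 0.79 and 0.69 with G1. Among stabilisers and plus-end proteins, 14 of 22 rose and 2 fell in G1 (median 0.25), and 8 rose and 1 fell in G7 (median 0.10). PRC1, which bundles the central spindle, rose by 1.08 with G1 (adjusted p = 2.82e-08) and 0.56 with G7 (adjusted p = 0.000592), and TPX2, a spindle assembly factor, by 0.93 and 0.43. Those that fell in G1 were MAPT (-0.40), the neuronal protein tau, and MAPRE3 (-0.19). DESeq2 called 9 of the 22 higher in G1 in place of 14, and 1 in place of 2 was called lower without replicate 2 of G1, without replicate 3 of NS or with thinned libraries.

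**Figure D4:**
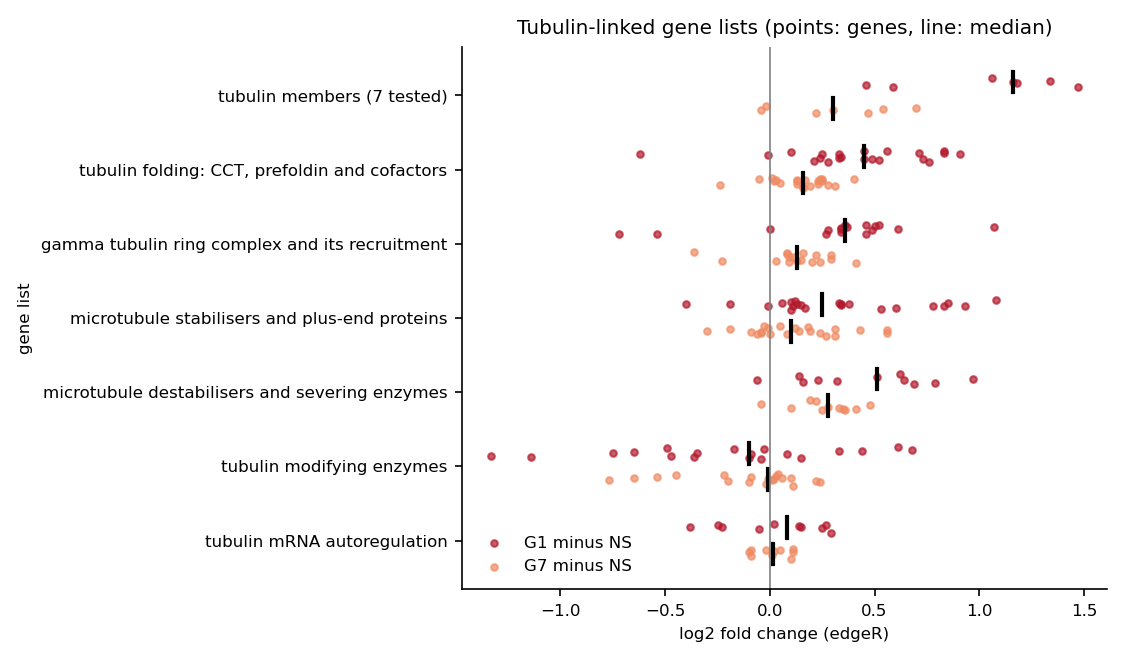
Log2 fold change (x axis, edgeR) of every tested gene in each tubulin-linked list (y axis) for G1 minus NS and G7 minus NS; points are genes and lines medians. The tubulin members have the highest G1 median (1.16). The destabiliser and folding lists follow at 0.51 and 0.45, and the decay and modifying-enzyme lists lie near 0. Members and lists were chosen with earlier results of these data known.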

How the data were processed

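The authors deposited raw read counts per Ensembl gene for 9 libraries, as whole-number counts without normalization. The submitters' processing notes name HTSeq 0.6.0, TopHat2 2.1.0 and human build GRCh38 (hg38). Which annotation release, strand setting and read filters went into the counting is not given in the sources read. Of 60675 rows, 57055 matched GENCODE 29. Counters of this kind can lose reads that match several genes, which bears on near-identical tubulins.

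From the counts, edgeR 4.0.16 (R 4.3.3) kept 13264 genes with filterByExpr, scaled libraries by TMM and fitted a quasi-likelihood model with a mean per group to the 9 libraries, with a common dispersion of 0.00217. G1 minus NS, G7 minus NS and G1 minus G7 were tested on both sides, with calls at a p under 0.05 after Benjamini-Hochberg adjustment. Levels per kilobase used the union of GENCODE 29 exons. The scripts were tested on simulated data.

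The members and gene lists were chosen with earlier results of these data known. Named genes are the members, CBX5, all tested family genes and, from each list, those with the smallest p-values (up to 4 for G1 minus NS and 2 for the other contrasts). Some were added for the text after their values were seen: TTC5, TUBGCP4, TUBGCP5, TUBGCP6, CCT4, TBCEL, MAPT and MAPRE3. Not every gene of the rule is named. The 20 alternatives covered scaling, filters, DESeq2 1.42.0, 2-group fits, thinning, mitochondrial genes, a 1.5-fold threshold, a replicate block and each library left out.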

Additional observations from a re-analysis of the deposited data

How the results depend on the processing

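Over the 20 alternatives, 6 of 7 tested tubulin genes were called higher with G1 in all but the test against a 1.5-fold change, which called 5, and none was called lower. That test called 0 for G7 against NS, in place of 3, and 3 for G1 against G7, in place of 6. Leaving out 1 library gave 6 for G1, 3 to 4 for G7 and 5 to 6 between the hairpins, with 0 lower. The replicate block gave 6, 3 and 6 higher and 0 lower, so it changed none of these counts. Deviations of same-numbered libraries correlated at 0.051 to 0.271 between G1 and G7, and at -0.09 to 0.067 in the pairs with NS. Libraries of unlike number were not compared, so whether equal numbers mark a batch was not tested.

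No called value reversed. Those that changed sign lay near 0. For G7 against NS, TUBA1C changed to 0.02 with the replicate block and ran from -0.17 to 0.26 with 1 library left out, over which TUBB2A ran from -0.22 to 0.10, TUBAL3 from -0.40 to 0.03, TUBB4A from -0.41 to 0.28, TUBD1 from -0.01 to 0.07 and TUBG2 from -0.07 to 0.02. TUBD1 was 0.00 with upper quartile scaling, -0.02 with library totals and 0.00 thinned, and TUBG2 was 0.00 thinned. TUBAL3 ran from -0.30 to 0.16 for G1 against G7. CNOT8 for G1 was -0.07 with upper quartile scaling, -0.08 with library totals and -0.01 to 0.04 with 1 library left out. CAMSAP2 for G1 was -0.01 with library totals, and TTLL7 between the hairpins was 0.00 thinned. The cause was not tested.

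Scaling by library totals moved the median of all genes by -0.101 (log2) for G1 against NS. Upper quartile scaling gave 3066 higher and 4815 lower genes with G1, in place of 4031 and 3806, 1398 and 1603 with G7, in place of 1735 and 1279, and 2346 and 3751 between the hairpins, in place of 3092 and 2870. Library totals gave 942 higher and 1564 lower with G7, the lowest count of higher genes there besides the test against a 1.5-fold change, so the 13.1% of genes called higher with G7 depends on the scaling. Depth limits TUBA1C, TUBB2A and TUBB2B, all under 4 CPM, and near-identical copies limit every alpha member.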

Other observations

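Enzymes that modify tubulin after assembly differed among themselves. Of 19 tested, 3 rose and 8 fell in G1 (median log2 fold change -0.10), and 2 rose and 2 fell in G7 (median -0.01). Over all genes 30.4% were called higher and 28.7% lower in G1, and 13.1% higher and 9.64% lower in G7. The count of 2 that rose in G7 was 1 without replicate 2 of NS and 0 with library totals in place of TMM. TTL, which restores the terminal tyrosine of alpha tubulin, was at 37.2, 38.9 and 38.8 CPM in G1, 30.8, 30.2 and 28.1 CPM in G7 and 25.6, 24.0 and 25.8 CPM in NS, and rose by 0.61 with G1 (edgeR, adjusted p = 1.38e-07) and 0.24 with G7 (adjusted p = 0.00982). The G7 call of TTL ended with library totals (0.20, adjusted p = 0.0817), with thinned libraries (0.18, adjusted p = 0.0734) and without replicate 2 of NS (0.21, adjusted p = 0.0502). AGBL2, a carboxypeptidase that trims tubulin tails, was at 3.32, 2.58 and 3.4 CPM in G1, 4.68, 4.78 and 5.26 CPM in G7 and 8.69, 7.14 and 7.44 CPM in NS, and fell by 1.33 with G1 (adjusted p = 1.97e-07) and by 0.65 with G7 (adjusted p = 0.000997). TTLL7, a beta tubulin polyglutamylase, fell in both, by 0.65 with G1 (adjusted p = 2.74e-06) and by 0.77 with G7 (adjusted p = 3.94e-06).

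MAP2, a neuronal microtubule stabiliser, was at 35.6, 34.7 and 34.9 CPM in G1, 21.7, 20.2 and 22.0 CPM in G7 and 18.4, 20.9 and 19.0 CPM in NS. It rose with G1 (log2 fold change 0.85, adjusted p = 4.04e-09) and did not pass with G7 (0.14, adjusted p = 0.172). CAMSAP2, which holds microtubule minus ends, fell by 0.30 with G7 (adjusted p = 0.000242), was at 0.10 with G1 (adjusted p = 0.094), and was 0.39 higher in G1 than in G7 (adjusted p = 2.68e-06).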
